A study of Mus musculus with 20 samples.

Results

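The nuclear genes for the respiratory chain and the mitochondrial ATP synthase were followed in mouse lung epithelial cells after overexpression of the Notch1 intracellular domain. A gene was a member if its single annotated symbol began with Ndufa, Ndufb, Ndufc, Ndufs or Ndufv (complex I), Uqcr (complex III), Cox4 to Cox8 (cytochrome oxidase) or Atp5 (ATP synthase). The array table named 86 such genes on 120 rows, and 84 of them, on 115 rows, had values on at least 4 arrays at each time. They were 84 of the 17051 genes tested. Cox8c and Cox7b2 were left out because too few arrays had a value. The 84 genes comprised 6 core subunits, 30 accessory subunits and 7 assembly factors of complex I, 8 genes of complex III, 16 of cytochrome oxidase and 17 of ATP synthase.

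MLE12 is an immortalised mouse line of lung epithelium that resembles the surfactant-making type II cells of the alveolus. The first arm was transfected with NICD1-pIRES-DsRed2, a plasmid that expresses the intracellular domain of Notch1 (NICD1), and the other with the empty vector (EV). Both arms had the same lipid transfection and the same medium, which held hydrocortisone and an estradiol, and were harvested 12, 24 or 48 h later. Each array held NICD1 RNA and empty vector RNA of 1 time, and the dyes were swapped between arrays. There were 6 arrays for 12 h and 7 for each later time. The replicates were independent by the series design. The sources used here give neither the plasmid's promoter nor the share of cells that took it up. In these bulk RNA samples, fewer expressing cells and less RNA per cell cannot be told apart.

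The respiratory chain passes electrons from NADH and succinate to oxygen and pumps protons out of the mitochondrial matrix, and ATP synthase uses their return to make ATP. Complex I, complex III, cytochrome oxidase and ATP synthase each combine subunits encoded in mitochondrial DNA with a larger number encoded in the nucleus. ATP synthase couples a catalytic head in the matrix, F1, to a membrane rotor and a side stalk. Assembly factors join the subunits and are absent from the finished complex. In the lung, type II cells spend ATP on the synthesis, packaging and secretion of surfactant. NICD1 is the part of Notch1 that enters the nucleus and, with the DNA-binding factor RBPJ, turns on target genes.

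Values are log2 ratios of NICD1 over empty vector on an array, so a negative value is a lower level with NICD1, and no level of either RNA alone was available. Fitted ratios are given with their standard error (SE) from limma, with a term for dye, and a gene passed with a Benjamini-Hochberg adjusted p under 0.05 over all 17051 genes. Replicate 3 of 12 h and replicate 3 of 48 h ran opposite to the other arrays as deposited and were multiplied by -1. Of 4 Notch targets, Nrarp had fitted ratios of 2.08, 2.61 and 2.29 at 12, 24 and 48 h and passed at each. Hey1 (0.30, 1.33 and 2.51) and Heyl (0.78, 1.80 and 1.68) passed at 24 and 48 h, and Hes1 (1.13, 0.97 and 0.25) at 12 and 24 h. Notch targets also served to choose the turned arrays, so these values are no independent support for that choice. Median ratios over all genes lay between -0.03 and 0.02 on every array. At 48 h, 14% of all genes passed as higher and 13.8% as lower. Of 7 measured type II markers, 3 passed as higher (Abca3, Nkx2-1 and Etv5), while the surfactant gene Sftpc was at -0.38 without passing. Of 4 leukocyte markers 1 was lower (Cd14, -0.45). Itgam at -0.48, Adgre1 at -0.15 and Ptprc at 0.08 did not pass. Of 5 fibroblast markers 1 was higher (Col1a1, 1.10), with Col3a1 at -0.53 without passing, and 0 of 5 endothelial markers passed. Of these 5 calls, that of Col1a1 held without 48 h replicates 5 to 7 and the others did not. These ratios do not show whether a marker is present, and their part in the results below was not tested.

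At 12 h, no member passed in either direction, where 0.229% of all genes tested passed as lower and 0.0528% as higher. Fitted ratios of the 84 members ran from -0.35 for Cox4i2, the lung isoform of cytochrome oxidase subunit 4, to 0.19 for the complex I accessory subunit Ndufb2. Their median was 0.04, and the smallest adjusted p was 0.961. At 24 h, again no member passed, against 1.3% of all genes lower and 0.369% higher. Ratios then ran from -0.21 for the accessory subunit Ndufb5 to 0.16 for Ndufc1, with a median of 0.03 and a smallest adjusted p of 0.728. No member had an unadjusted p under 0.05 at either time. With each time fitted alone, 0 members had one at 12 h and 1 at 24 h, and none passed, against 0.0762% and 1.21% of all genes lower. No member passed for the change from 12 to 24 h either, against 0.768% of all genes lower and 0.129% higher. Ndufb2, Ndufb5 and Ndufc1 are named because they ended these ranges, after their values were seen.

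At 48 h, 36 of the 84 members passed as lower with NICD1 and 2 as higher, while 46 did not pass. The lower share was 42.9%, against 13.8% of all genes tested, and the higher share was 2.38%, against 14% of all genes. The median over members was -0.24, where that over all genes was -0.01, and 69 of the 84 fitted ratios lay below 0. Changes were small: the 36 lower members ran from -1.003 to -0.22 with a median of -0.45, and 1 member had an absolute ratio of 1 or more. By role, as read from the symbol, 18 of 30 accessory subunits (60%) and 4 of 7 assembly factors (57.1%) of complex I were lower. Of its core subunits, 1 of 6 (16.7%) was. ATP synthase had 7 of 17 lower (41.2%), cytochrome oxidase 5 of 16 (31.2%) and complex III 1 of 8 (12.5%). The shares of the core subunits and of complex III were near the 13.8% of all genes. Fitted ratios lay below 0 in all 6 core subunits and in 6 of 8 complex III genes. The 2 higher members were Ndufb11 and Atp5a1.

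**Figure D1:**
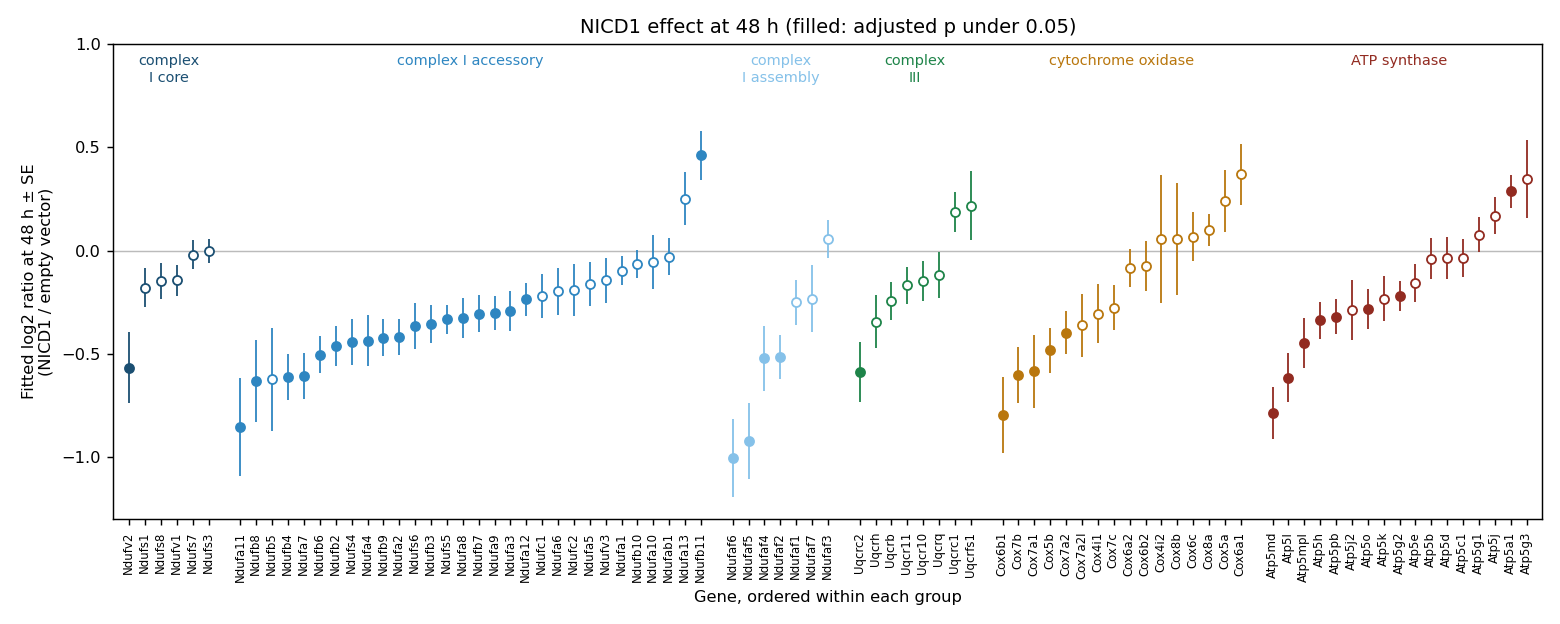
Fitted log2 ratio of NICD1 over empty vector at 48 h (vertical axis) with its SE as a bar, for each of the 84 genes (horizontal axis) ordered within its role. Filled points passed at an adjusted p under 0.05. Filled points run from -1.003 for Ndufaf6 to 0.46 for Ndufb11, and 36 of the 38 lie below 0.

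These calls rested on 3 of the 7 arrays at 48 h. Without replicates 5, 6 and 7, 1 member passed as lower, Atp5md, and none as higher, where 2.18% of all genes passed as lower and 1.51% as higher. In that fit 18 members had an unadjusted p under 0.05, and the median over members was -0.11. With the 48 h arrays fitted alone, which then had only their own spread as error, no member passed, against 0.979% of all genes lower and 0.393% higher. In that fit 32 members had an unadjusted p under 0.05, and the smallest adjusted p was 0.0781. Leaving out single arrays gave 21 to 41 lower members, with 21 without 48 h replicate 6, and 20 of the 36 passed in all 20 such fits.

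Array by array, the median over the 84 members lay between -0.03 and 0.09 at 12 h and between -0.05 and 0.13 at 24 h. At 48 h it was -0.12, -0.02, -0.02 and -0.24 on replicates 1 to 4, and -0.57, -0.43 and -0.47 on replicates 5 to 7. All 7 were below 0, and the last 3 were the lowest of the 20 arrays. The members also differed more among themselves on those 3 arrays, with an SD across members of 0.574 to 0.788 against 0.199 to 0.496 on replicates 1 to 4. So did all genes, at 0.705 to 0.813 against 0.494 to 0.631. NICD1 RNA carried Cy3 on replicates 5 and 7 and Cy5 on replicate 6. The labels name nothing else that sets these arrays apart, and a technical share in their values was not tested.

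**Figure D2:**
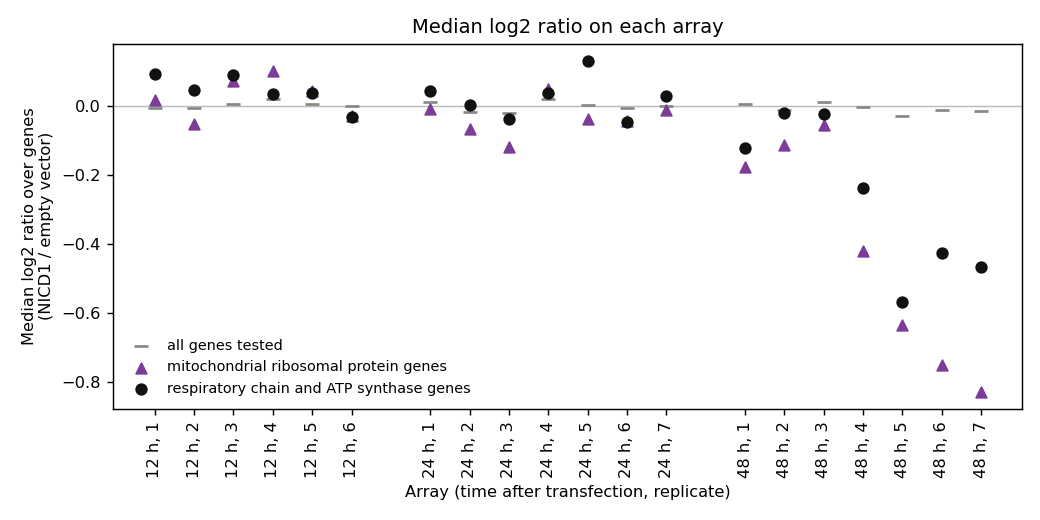
Median log2 ratio of NICD1 over empty vector (vertical axis) on each of the 20 arrays (horizontal axis), for the 84 respiratory chain and ATP synthase genes, 78 mitochondrial ribosomal protein genes and all genes tested. Medians of the 84 genes stay between -0.05 and 0.13 at 12 and 24 h and reach -0.57 at 48 h, while those of all genes stay near 0.

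Shown apart as a description, replicates 5 to 7 and replicates 1 to 4 differed in the size of their ratios. The mean of replicates 5 to 7 was below 0 for 65 members and that of replicates 1 to 4 for 63, with 50 below 0 in both. Most means were below 0 in each set, so many would be below 0 in both without any agreement gene by gene. The correlation of these means was 0.25 across the members and 0.35 across all genes tested. The medians of these means were -0.49 and -0.11. For the 36 lower members, all 36 means over replicates 1 to 4 were also below 0, with a median of -0.19 against -0.79 over replicates 5 to 7. All 7 arrays entered the fit that called them, so that count follows in part from the calls. In all, 13 members, all of them called, were below 0 on every 48 h array: the assembly factors Ndufaf2, Ndufaf5 and Ndufaf6, the complex I subunits Ndufa2, Ndufa7, Ndufb6, Ndufb8, Ndufb9 and Ndufs5, the cytochrome oxidase subunits Cox6b1 and Cox7a2, and the ATP synthase subunits Atp5l and Atp5md. They made up 15.5% of the members, where 7.52% of genes with 7 values were below 0 on all 7 arrays. No member was above 0 on all 7, against 7.38% of genes.

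In 34 members, or 40.5%, replicates 5 to 7 all lay below replicates 1 to 4, against 14.8% of genes. In 8 members, or 9.52%, they all lay above, against 15.3% of genes. These 8 were Ndufa13 and Ndufb11 of complex I, Uqcrc1 and the Rieske iron-sulphur protein Uqcrfs1 of complex III, and Cox5a, Cox6a1, Cox6a2 and Cox8a of cytochrome oxidase. None was an ATP synthase gene. The members of both lists were picked by their values, and Ndufb11 was the only 1 of these 8 to pass at 48 h. For Uqcrfs1, the mean was 0.82 on replicates 5 to 7 and -0.22 on replicates 1 to 4, and the fitted ratio of 0.22 ± 0.17 had an adjusted p of 0.379.

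**Figure D3:**
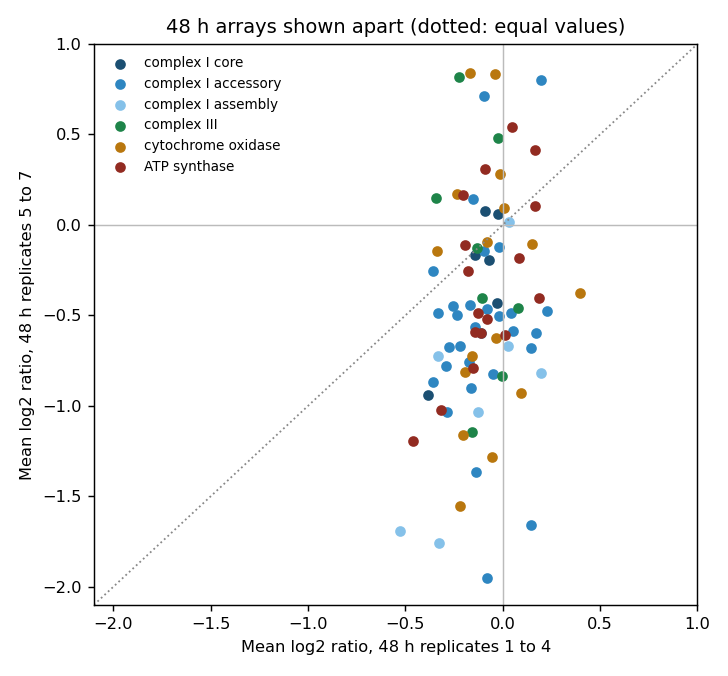
Mean log2 ratio of NICD1 over empty vector on 48 h replicates 5 to 7 (vertical axis) against that on replicates 1 to 4 (horizontal axis), 1 point a gene, coloured by role. The dotted line marks equal values. Most points lie below it, 50 of 84 lie below 0 on both axes, and the vertical spread is wider. The correlation across the 84 genes is 0.25.

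Promoter sequence was described for members with a RefSeq window of 250 bases before to 50 after the gene start, which 71 of the 84 had. Both strands were searched for 4 motifs. The NRF1 motif was GCGCA and GCGC with 1 free base between them, and CCGGAAG is bound by ETS factors such as GABPA, NRF1 and GABPA being known regulators of respiratory chain genes. ATGGCGG is bound by YY1 and GTGGGAA by RBPJ. The motifs were counted separately, so a base could count in more than 1. The NRF1 motif occurred in 16 of the 71 windows, or 22.5%, against 4.78% of all 27025 gene windows. CCGGAAG occurred in 21.1% against 9.12%, and ATGGCGG in 14.1% against 4.19%. GTGGGAA occurred in 5.63%, against 6.39% of all windows. Among members that were lower at 48 h, the NRF1 motif was in 10 of 31 windows, or 32.3%, and among the others in 6 of 40, or 15%. CCGGAAG was in 6 of 31, or 19.4%, and in 9 of 40, or 22.5%. ATGGCGG was in 12.9% of the lower members and 15% of the others, and GTGGGAA in 6.45% and 5%. A motif match is a description of the sequence and was not tested for binding.

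Promoters of 5 members are shown as the 150 bases before the start, from RefSeq on GRCm38.p6, read in the direction of the gene, with motif matches in capitals. Ndufa11 (chr17:56717612-56717761, plus strand) and Ndufaf4 (chr4:24897933-24898082, plus strand), both lower at 48 h, hold the NRF1 motif. Cox6b1 (chr7:30626115-30626264, minus strand), also lower, and Uqcrh (chr4:116075071-116075220, minus strand), which did not pass, hold the ETS motif as its reverse complement. Cox6a1 (chr5:115348959-115349108, minus strand), which did not pass at 0.37, holds both. All 5 shown hold a match and so do not stand for the members. Atp5md, Atp5l, Cox7b and Ndufb8, all lower, hold none of the motifs in these 150 bases. In the longer windows counted above, Atp5md and Atp5l hold the ETS motif, and Cox7b and Ndufb8 hold none. Also not shown are Ndufs6 and Atp5g2, which hold the NRF1 motif in the 150 bases. Ndufaf5, not shown either, holds the RBPJ motif in the 150 bases and the NRF1 motif after the start.
Ndufa11: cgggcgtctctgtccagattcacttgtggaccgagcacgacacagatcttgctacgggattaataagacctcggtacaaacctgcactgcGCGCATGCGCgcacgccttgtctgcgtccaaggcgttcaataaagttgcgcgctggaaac
Ndufaf4: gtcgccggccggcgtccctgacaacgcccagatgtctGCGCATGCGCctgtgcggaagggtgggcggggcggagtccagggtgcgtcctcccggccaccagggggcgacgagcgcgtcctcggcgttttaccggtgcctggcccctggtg
Cox6b1: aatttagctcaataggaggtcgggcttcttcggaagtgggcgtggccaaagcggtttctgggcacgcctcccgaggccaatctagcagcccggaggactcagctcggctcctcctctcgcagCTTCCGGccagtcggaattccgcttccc
Uqcrh: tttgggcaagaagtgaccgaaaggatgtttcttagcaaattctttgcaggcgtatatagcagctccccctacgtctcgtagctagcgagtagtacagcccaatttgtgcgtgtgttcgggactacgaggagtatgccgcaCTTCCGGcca
Cox6a1: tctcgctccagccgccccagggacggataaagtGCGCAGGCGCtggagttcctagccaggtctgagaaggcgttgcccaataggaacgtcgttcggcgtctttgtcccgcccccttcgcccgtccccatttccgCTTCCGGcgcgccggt

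Among the assembly factors of complex I, 4 of 7 were lower at 48 h, with a median of -0.51 over the 7. Ndufaf6, which is needed for an early membrane part of the complex, had ratios from -2.19 to -0.39 with a median of -0.86. All 7 arrays were below 0, and replicates 5 to 7 were the 3 lowest. Its fitted ratio of -1.003 ± 0.19 was the lowest of all members (adjusted p = 0.000936, n = 7 arrays). Ndufaf5, which in human cells hydroxylates an arginine of the core subunit Ndufs7, ran from -2.02 to -0.13 with a median of -0.48. Again every array was below 0 and replicates 5 to 7 lay apart, at -1.62 to -2.02, from the other 4, at -0.13 to -0.48. The fit gave -0.92 ± 0.18 (adjusted p = 0.00145).

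Ndufaf2, a late-acting factor and paralogue of the subunit Ndufa12, ran from -0.91 to -0.01 and was fitted at -0.51 ± 0.11 (adjusted p = 0.00178). Here replicate 4 was the lowest array, and the sets overlapped. Ndufaf4 acts early, together with Ndufaf3, on the arm that holds the quinone site. It ran from -1.40 to 0.33 with a median of -0.39 and was fitted at -0.52 ± 0.16 (adjusted p = 0.0178). Without replicate 6 or without replicate 7 it no longer passed. Of its 3 rows, 2 passed singly, at -0.89 and -0.31, and the other was at -0.43 ± 0.55. Its partner Ndufaf3 was at 0.05 ± 0.09, with arrays on both sides of 0. Ndufaf1 (-0.25) and Ndufaf7 (-0.23) did not pass either.

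The core subunits of complex I carry its flavin, iron-sulphur clusters and quinone site. Ndufv2, an iron-sulphur subunit of the NADH-oxidising module, was the 1 of 6 measured that passed. Its arrays ran from -1.12 to 0.32 with a median of -0.78. In all, 6 arrays were below 0, and replicates 1 to 4 spanned -0.79 to 0.32, so the sets overlapped. The fit gave -0.57 ± 0.17 (adjusted p = 0.0198), and the call was lost when any of replicates 4 to 7 was left out. These values are means of 2 rows. Fitted singly, 1 row passed at -0.58 ± 0.11 (adjusted p = 0.00116) and the other did not at -0.53 ± 0.34. Ndufs1, the largest subunit, was at -0.18 ± 0.10 (adjusted p = 0.183). Ndufv1, which holds the flavin, was at -0.14, and Ndufs8 at -0.15. Ndufs7 was at -0.02, and Ndufs3 was the closest to 0 (adjusted p = 0.976).

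Accessory subunits surround the core and stabilise it. Of the 30 measured, 18 were lower and 1 was higher at 48 h, with a median of -0.32. Ndufa11, a membrane-arm subunit that touches complex III in supercomplexes, ran from -2.72 to 0.19 with a median of -0.24. Replicates 5 to 7 were at -1.47 to -2.72, and replicates 1 to 4 at -0.24 to 0.19, without overlap. The fitted ratio was -0.85 ± 0.24 (adjusted p = 0.0108), and -0.08 without replicates 5 to 7 (adjusted p = 0.749). The call was lost without replicate 6. Both of its rows passed singly, at -0.91 and -0.79.

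Ndufb8, in the distal membrane arm, ran from -2.13 to -0.01 with a median of -0.34. All its arrays were below 0, yet leaving out any of replicates 5 to 7 ended the call of -0.63 ± 0.20 (adjusted p = 0.0226). Ndufb4 and Ndufb6 in that arm passed in all 20 fits that left out 1 array. Ndufb4 ran from -1.16 to 0.02 and was fitted at -0.61 ± 0.11 (adjusted p = 0.000717), with replicate 4 as its lowest array. Ndufb6 ran from -0.85 to -0.13 and was fitted at -0.50 ± 0.09 (adjusted p = 0.000664), with all 7 arrays below 0. Without replicates 5 to 7 they were at -0.36 and -0.29 (adjusted p = 0.0926 and 0.0803).

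Besides Ndufs6, Ndufa12 and Ndufa4, described below, the other accessory subunits that were lower were Ndufa7 (-0.61), Ndufb2 (-0.46), Ndufs4 (-0.44), Ndufb9 and Ndufa2 (both -0.42), Ndufb3 (-0.36), Ndufs5 and Ndufa8 (both -0.33), Ndufb7 (-0.31), Ndufa9 (-0.30) and Ndufa3 (-0.29). Among those that did not pass, Ndufb5 was the lowest, at -0.62 ± 0.25 (adjusted p = 0.072). Its replicates 1 to 4 were all above 0, at 0.04 to 0.30, and replicates 5 to 7 all below, at -2.51 to -0.68. These genes are named to complete the group, after their values were seen, as are Ndufb4 and Ndufb6 above, Ndufaf1, Ndufaf2, Ndufaf3 and Ndufaf7, the other core subunits, and Uqcrc1, Ndufa13, Atp5g3 and the genes below that are given with a ratio alone.

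Ndufb11, also of the membrane arm, was the accessory subunit that rose. Its arrays ran from -0.13 to 0.89 with a median of 0.60, and 6 of 7 were above 0. The fit gave 0.46 ± 0.12 (adjusted p = 0.00694). Ndufa13, also known as GRIM-19, was at 0.25 ± 0.13 (adjusted p = 0.163). Some genes with several rows passed unevenly. Ndufs6 was at -0.37 ± 0.11 (adjusted p = 0.0209), with 2 of 3 rows lower. Ndufa12 was at -0.24 ± 0.08 (adjusted p = 0.0326), with 1 of 3 rows lower. In Ndufab1, the mitochondrial acyl carrier protein, rows at 48 h ran from -0.14 to 0.11 and the gene was at -0.03. Ndufv3 (-0.14) and Ndufa1 (-0.10) also had rows on both sides of 0, with neither gene passing. Fitted singly, 1 of 3 rows of Ndufv3 was lower, at -0.30, and 1 of 2 rows of Ndufa1, at -0.21.

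Complex III passes electrons from ubiquinol to cytochrome c. Uqcrc2, a core protein that faces the matrix, was the 1 of its 8 measured genes that passed. The arrays ran from -1.58 to 0.07 with a median of -0.44. Replicates 5 to 7, at -0.74 to -1.58, lay below the other 4, at -0.44 to 0.07. The fit gave -0.59 ± 0.15 (adjusted p = 0.00567). Its partner core protein Uqcrc1 was at 0.19 ± 0.10 (adjusted p = 0.163), with replicates 5 to 7 above the others. Uqcrh, the hinge protein near cytochrome c1, ran from -1.04 to 0.34 and did not pass at -0.34 ± 0.13 (adjusted p = 0.0528). It passed when replicate 1, 2 or 3 of 48 h was left out. The smaller subunits Uqcrb (-0.25), Uqcr11 (-0.17), Uqcr10 (-0.15) and Uqcrq (-0.12) did not pass.

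Cytochrome oxidase hands the electrons to oxygen, and several of its nuclear subunits exist as tissue isoforms. Of its 16 measured genes, 5 were lower: Cox6b1, Cox7b, Cox7a1, Cox5b and Cox7a2. Cox6b1, the common isoform of the subunit that faces cytochrome c, ran from -1.89 to -0.06 with a median of -0.47. Every array was below 0, and replicates 5 to 7 lay apart at -1.31 to -1.89. The fit gave -0.79 ± 0.18 (adjusted p = 0.00371). Its testis isoform Cox6b2 was at -0.07 ± 0.12, with arrays from -0.32 to 0.26. Cox7b ran from -1.38 to 0.06 and was fitted at -0.60 ± 0.14 (adjusted p = 0.00306). Cox5b, a zinc-binding subunit, was at -0.48. Among subunits without a described isoform that did not pass, Cox7c was at -0.28, Cox6c at 0.07 and Cox5a at 0.24.

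The isoforms of subunit 7a included both the muscle and the common form. Cox7a1, the heart and skeletal muscle form, ran from -1.84 to 0.12 and was fitted at -0.58 ± 0.18 (adjusted p = 0.0179). Leaving out any of replicates 5 to 7 ended that call. Cox7a2, the common form, was below 0 on all 7 arrays, from -0.85 to -0.02, and was fitted at -0.40 ± 0.10 (adjusted p = 0.00781). Of its 2 rows, 1 passed singly. Cox7a2l, which helps join complex III to cytochrome oxidase, was at -0.36 ± 0.15 (adjusted p = 0.0887). Its replicates 1 to 4 were all above 0, at 0.01 to 0.23, and replicates 5 to 7 all below, at -1.35 to -0.44.

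For subunit 4, the common isoform Cox4i1 was at -0.30 ± 0.14 (adjusted p = 0.122), with 6 of 7 arrays below 0. The lung isoform Cox4i2 had the widest arrays among the isoform genes, from -1.76 to 1.33, and was at 0.06 ± 0.31 (adjusted p = 0.921). For subunit 6a, the common isoform Cox6a1 ran from -0.52 to 1.09 and was at 0.37 ± 0.15 (adjusted p = 0.0698). It passed as higher when replicate 1, 2 or 3 was left out. The muscle isoform Cox6a2 was at -0.09 ± 0.09. For subunit 8, the common isoform Cox8a was at 0.10 ± 0.08 and the muscle isoform Cox8b at 0.06 ± 0.27, whose arrays ran from -1.25 to 1.41. Ndufa4, named as a complex I subunit and later assigned to cytochrome oxidase, was at -0.44 ± 0.12 (adjusted p = 0.0118), and lost the call without replicate 5 or 6. By its symbol it was counted above with the accessory subunits of complex I.

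**Figure D4:**
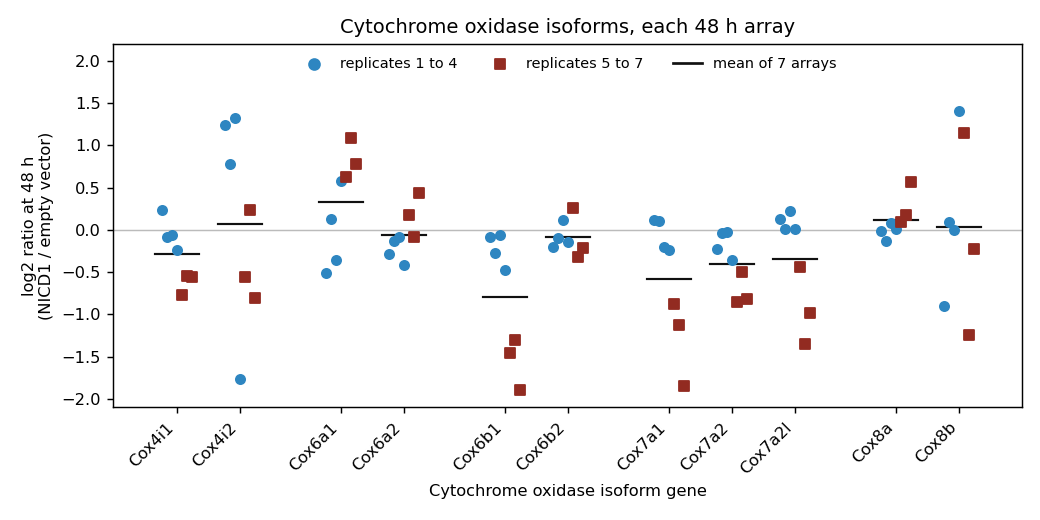
Log2 ratio of NICD1 over empty vector on each 48 h array (vertical axis) for the isoform genes of cytochrome oxidase (horizontal axis). Circles are replicates 1 to 4, squares are replicates 5 to 7, and the bar is the mean of the 7. Cox6b1 lies below 0 on all 7 arrays with its squares apart, Cox6a1 has its squares above its circles, and Cox4i2 spreads from -1.76 to 1.33.

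In ATP synthase, 7 of 17 genes were lower and 1 higher. None of the 5 measured subunits of the F1 head was lower, and 7 of the other 12, which form the membrane part and side stalk, were. That division was made after the values were seen and is given without a test. Atp5md, a small membrane subunit also known as DAPIT, ran from -1.40 to -0.01 with a median of -0.97. All arrays were below 0, and replicate 4, at -1.04, lay among replicates 5 to 7. The fit gave -0.79 ± 0.13 (adjusted p = 0.000298), and -0.46 without replicates 5 to 7 (adjusted p = 0.0482). Atp5l, subunit g of the membrane part, ran from -1.10 to -0.10 and was fitted at -0.61 ± 0.12 (adjusted p = 0.00124), with all arrays below 0. The small membrane subunit Atp5mpl was lower at -0.45, while Atp5k, subunit e, did not pass at -0.23.

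The stalk subunit b, Atp5pb, was at -0.32 ± 0.09 (adjusted p = 0.0102), with 2 of its 4 rows passing and the rows spanning -0.43 to -0.09. The call was lost without replicate 6. Subunit d of the stalk, Atp5h, was at -0.34, and Atp5o, which joins stalk to head, at -0.28. Atp5j, another stalk subunit, did not pass at 0.17. The rotor subunit c is encoded by 3 genes that differ in their import peptides. Atp5g2 passed at -0.22 ± 0.07 (adjusted p = 0.029), Atp5g1 was at 0.08 and Atp5g3 at 0.35 ± 0.19 (adjusted p = 0.195). Of the 2 rows of Atp5g2, 1 passed singly at -0.33 and the other did not at -0.11. The call of Atp5g2 was lost when replicate 2, 4, 5 or 6 of 48 h was left out. Atp5j2, subunit f, did not pass at -0.29 ± 0.14, with rows at -0.55 and -0.03.

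In the head, Atp5a1, the alpha subunit, ran from -0.01 to 0.54 with a median of 0.37, and 6 of 7 arrays were above 0. It rose by a fitted 0.29 ± 0.08 (adjusted p = 0.0114), and 1 of its 3 rows passed singly. The catalytic beta subunit Atp5b was at -0.04 ± 0.10 (adjusted p = 0.823). Its replicates 1 to 4 were all above 0, at 0.02 to 0.48, replicates 5 to 7 ran from -0.73 to 0.03, and its 3 rows spanned -0.19 to 0.22. Atp5c1 and Atp5d were both at -0.04 and Atp5e at -0.16.

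The change from 24 to 48 h was tested as the difference of the fitted ratios, in which either RNA can have moved. In all, 4 members passed as lower and none as higher, against 0.985% of all genes lower and 1.07% higher. Atp5md went from 0.12 to -0.79, a difference of -0.90 ± 0.18 (adjusted p = 0.0352). Ndufb6 differed by -0.55 (adjusted p = 0.0423), Ndufb4 by -0.61 (0.0494 adjusted) and Atp5l by -0.66 ± 0.17. The adjusted p of Atp5l, 0.04999, lay just inside the threshold. This count was unstable: it was 0 without replicates 5 to 7 and between 0 and 27 when single arrays were left out. It was 27 without 48 h replicate 3, 26 without replicate 2 and 19 without replicate 1, and at most 1 in the other 17 such fits.

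Neighbouring parts of the pathway were read from the same fit at 48 h, where 13.8% of all genes passed as lower and 14% as higher. The lists are short, and their shares were not tested against these. Of the 4 succinate dehydrogenase genes, which feed electrons from succinate, Sdhb passed at -0.51 ± 0.11 (adjusted p = 0.0023). Cycs, the electron carrier cytochrome c, was lower at -0.44. Of the mitochondrially encoded subunits 2 were measured, ND4L at 0.56 and COX2 at 0.22, and neither passed. Among assembly factors outside the member symbols, 7 of 17 (41.2%) for cytochrome oxidase and 7 of 14 (50%) others were lower and none higher. The lowest was Tmem126b, a complex I assembly factor, at -0.88 ± 0.14. Of 12 citric acid cycle genes, 3 (25%) were lower (Dld, Suclg1 and Fh1) and 2 (16.7%) higher (Cs and Mdh2). Without replicates 5 to 7, Tmem126b passed (adjusted p = 0.049) and the others named here did not.

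Of 11 regulators of mitochondrial biogenesis, 3 were higher and 3 lower at 48 h, or 27.3% each way, against 14% and 13.8% of all genes. The mitochondrial RNA polymerase Polrmt was at 0.97 ± 0.21, the ETS factor Gabpa at 0.53 and the coactivator Pprc1 at 0.50. Gabpb1, the partner of Gabpa, was at -0.37, the mitochondrial DNA-packaging factor Tfam at -0.29 and Tfb1m at -0.36. All 6 lost their calls without replicates 5 to 7. Over replicates 1 to 4, the mean was -0.32 for Gabpb1 and -0.27 for Tfb1m, near their fitted values, and 0.37 for Polrmt, 0.19 for Gabpa, 0.16 for Pprc1 and -0.10 for Tfam. Of 7 genes for exchange of ATP, ADP and phosphate, 2 (28.6%) were higher and none was lower. They were Vdac2 (0.46) and Atpif1, the inhibitor of ATP synthase (0.22).

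For comparison with other large gene groups, 52 of 78 mitochondrial ribosomal protein genes, or 66.7%, were lower at 48 h and none higher, with a median of -0.42. Of 69 cytosolic ribosomal protein genes, 21, or 30.4%, were lower and 4 higher, with a median of -0.13. The array medians of that group followed the dye: at 48 h they were above 0, at 0.03 to 0.11, on the 3 arrays with NICD1 in Cy5, and below 0, at -0.50 to -0.16, on the 4 with NICD1 in Cy3. They had the same signs by dye on all arrays at 12 and 24 h. Replicate 3 of 12 h and replicate 3 of 48 h are among these arrays. Both were turned in part because of their dye pattern, so their signs here are no independent support for it. The respiratory chain and ATP synthase genes, at 42.9% and -0.24, lay between the mitochondrial and the cytosolic ribosomal protein genes. No test of the difference between these groups was made. The medians of the mitochondrial ribosomal genes were likewise lowest on 48 h replicates 5 to 7, at -0.83 to -0.63, against -0.42 to -0.06 on replicates 1 to 4.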

How the data were processed

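RNA of NICD1 and empty vector cells was compared on 20 dual-colour Agilent arrays. The deposited values were log2 ratios, as judged from the values, and limma was used upstream per the submitters' processing notes; the sources used here do not give its version, background correction or normalisation. Every column of the table was mapped to a sample by its name, the sample's own identifier, and the title gave its time and replicate, and 0 columns were left unused. Arrays have no counting depth, so their number limits the precision, and signal over background was not analysed here. Of the table, 14.2% was missing.

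From the deposited log2 ratios, 12 h replicate 3 and 48 h replicate 3 were multiplied by -1. This rests on their dye pattern and Notch targets as seen in these data, since the sources used here state no direction. Rows were named through the platform annotation. A gene was the mean of its rows with 1 symbol and at least 4 values at each time, which left 17051 genes from 28799 of 45220 rows. Members with several rows numbered 21 and their rows were also fitted singly. Cross-hybridisation with pseudogenes was not tested.

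R 4.3.3 and limma 3.58.1 (lmFit, eBayes) fitted 3 time coefficients and a dye term over 20 arrays. These share 1 residual variance per gene, so the SE at 48 h mixes in the spread of the 12 and 24 h arrays. Tests were moderated and two-sided, adjusted over all genes at 0.05. On data simulated on this design with 200 changed genes among 17051, 77% of changes of 1 and 31% of changes of 0.5 at 48 h were recovered, and 6.09% of calls were false. In that simulation, changes as small as those of most members were thus often missed. In the data far more genes passed at 48 h, 13.8% as lower and 14% as higher. The simulated shares may therefore not hold for these calls.

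Genes were named by rule: in each role, up to 2 with the lowest and 2 with the highest ratio among those passing, the 2 with the largest absolute ratio at 48 h, the lowest and highest change between times, cytochrome oxidase isoforms, Ndufa4, and members whose rows differed in sign or call. Any other gene was named after its values were seen, to complete a group or end a range. Members and lists were chosen with earlier results of these data known. Alternatives covered the arrays used, direction, dye, replicate block, weights, spread, centring, missing values and single rows. Promoter windows came from RefSeq on GRCm38.p6.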

Additional observations from a re-analysis of the deposited data

Results flagged for a closer look

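Single arrays lay far from the others of their time, by Dixon's gap-to-range test, in 10 of 108 sets. A set was 1 gene named by rule, or the median over the members, at 1 time, and all 10 were single genes. Chance flags about 1 in 20 such sets, and no 48 h set was among them. At 24 h, replicate 5 stood apart in Uqcrc2 (-0.34, others -0.01 to 0.18), Ndufs6 (0.38, others -0.17 to 0.05) and Ndufv3 (0.19, others -0.13 to -0.02). Replicate 7 stood apart in Cox7a2l (0.48, others -0.34 to -0.01) and Cox7b (-0.15, others 0.09 to 0.25). The testis isoform Cox6b2 was at -0.89 on replicate 4, where the others ran from -0.24 to 0.17. The muscle isoform Cox7a1 was at 0.61 on replicate 1, with the others at -0.18 to 0.13. The stalk subunit Atp5pb was at -0.19 on replicate 6, with the others at -0.01 to 0.10. At 12 h, Ndufa12 was at 0.38 on replicate 3, one of the turned arrays, with the others at -0.17 to 0.00. Ndufab1 was at 0.37 on replicate 1, with the others at -0.05 to 0.02. None of these genes passed at 12 or 24 h.

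The ratio differed between 24 and 48 h, by the limma test of that difference, in Atp5md (-0.90), Atp5l (-0.66), Ndufb4 (-0.61) and Ndufb6 (-0.55). All 7 arrays at 48 h were below 0 in Atp5md, Atp5l and Ndufb6, and 6 of 7 in Ndufb4. All 4 calls were lost without 48 h replicates 5 to 7.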

How the results depend on the processing

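At 12 and 24 h, and for the change between them, no member passed under any alternative run. At 48 h, the number lower was 36 and fell to 22 with arrays scaled to equal spread, 1 without 48 h replicates 5 to 7 and 0 with each time fitted alone; in the last of these the number higher was 0, as it was without replicates 5 to 7. Leaving out 1 array gave 21 to 41 lower and 2 to 4 higher, with 4 higher without 48 h replicate 1. Other settings gave 28 (array weights) to 40 (without the 2 turned arrays) lower of 84, and 45 of 115 with rows fitted singly. With 12 h and 48 h replicate 3 as deposited, 31 were lower and 3 higher. For the change from 24 to 48 h, the number lower was 4. It was 0 without replicates 5 to 7, with those 2 arrays as deposited and with rows fitted singly, 2 with no dye term, with scaled spread and with no filter on missing values, 12 with array weights, 14 with genes measured on every array and 22 without the turned arrays. It was 0 to 27 with 1 array left out. The cause of these shifts was not tested. The replicate number as a block gave 33 lower and 2 higher at 48 h, and 0 for the change from 24 to 48 h; same-numbered arrays did not pair, with correlations of their deviations from -0.132 to 0.139 and 1 of 19 above 0.1. No named gene that passed changed sign under an alternative. Signal over background could not be judged, since channel intensities were not analysed here.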
